A study of Homo sapiens with 12 samples.

Results

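Histone lysine methylation is written by methyltransferases and removed by demethylases, and 42 genes of this machinery were followed in 2 human small cell lung cancer lines grown with or without an inhibitor of the demethylase LSD1. The genes were chosen by symbol, 42 of the 56508 symbols in the deposited table, and all 42 passed the filter on low values, among 15456 genes tested. By the mark they are best known for, 14 were grouped under lysine 4 of histone H3 (H3K4). These are 9 genes listed as methyltransferases, 3 core subunits of their complexes and 2 demethylases. Another 13 act on H3K9 (6 methyltransferases and 7 demethylases), 5 on H3K27 (4 genes of Polycomb repressive complex 2, PRC2, and 1 demethylase), 9 on H3K36 (6 methyltransferases and 3 demethylases) and 1 on H3K79. LSD1, encoded by KDM1A, is not among the 42.

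Messenger RNA was sequenced from H82 with ORY-1001 at 1 µM, H82 control cultures with PBS, H211 with ORY-1001 at 1 µM and H211 control cultures with PBS, with 3 libraries in each group. ORY-1001 is a small-molecule inhibitor of LSD1, and the genotype of all 12 libraries is given as WT. The sample labels give 7 days of treatment and the treatment protocol gives 10 days, and no other source resolves this. Whether the 3 libraries of a group were grown separately is not stated. Every p-value therefore reflects the spread among the libraries at hand, which may be technical, and each line stands for a single cell line.

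LSD1 removes methyl groups from mono- and dimethylated H3K4 and, with other partners, from H3K9. The JARID1 demethylases KDM5A and KDM5B act on H3K4 as well, by a different chemistry, against the COMPASS methyltransferases KMT2A to KMT2D, SETD1A and SETD1B. Methylated H3K4 marks promoters and enhancers, methylated H3K36 marks transcribed genes, and methylated H3K9 and H3K27 are associated with silent chromatin. The comparison asks whether transcripts of the other enzymes of these marks differ when LSD1 is inhibited.

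The DNA just before the start of 4 members is shown because results described below turn on these genes: SMYD2 rose in both lines, EZH2 rose in H82, NSD2 fell in H82 and KDM4A fell in both lines. Each run is the 250 bases before the RefSeq start (GRCh38.p14), read 5′ to 3′ on the gene's strand, with matches to the searched motifs in capitals on either strand. The windows are chr1:214280909-214281158 (plus strand) for SMYD2, chr7:148884292-148884541 (minus strand) for EZH2, chr4:1871143-1871392 (plus strand) for NSD2 and chr1:43649899-43650148 (plus strand) for KDM4A. EZH2 has 2 RefSeq starts, and the first listed was used. RefSeq starts can differ from the GENCODE gene ends given further on.
SMYD2: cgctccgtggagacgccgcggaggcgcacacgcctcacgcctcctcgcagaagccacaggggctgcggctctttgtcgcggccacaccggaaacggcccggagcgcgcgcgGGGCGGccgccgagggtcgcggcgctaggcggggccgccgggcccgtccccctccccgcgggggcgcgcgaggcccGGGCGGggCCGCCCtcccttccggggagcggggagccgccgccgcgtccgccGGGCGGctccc
EZH2: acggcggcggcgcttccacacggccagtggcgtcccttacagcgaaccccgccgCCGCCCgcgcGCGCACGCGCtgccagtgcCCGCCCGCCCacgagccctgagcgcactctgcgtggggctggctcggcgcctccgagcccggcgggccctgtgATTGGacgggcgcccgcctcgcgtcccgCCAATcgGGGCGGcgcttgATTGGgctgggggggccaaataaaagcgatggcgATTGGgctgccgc
NSD2: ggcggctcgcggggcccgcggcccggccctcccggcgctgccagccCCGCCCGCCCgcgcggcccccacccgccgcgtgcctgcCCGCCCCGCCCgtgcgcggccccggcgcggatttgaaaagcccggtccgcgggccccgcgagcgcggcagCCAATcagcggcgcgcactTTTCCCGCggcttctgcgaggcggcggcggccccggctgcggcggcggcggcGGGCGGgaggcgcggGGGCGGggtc
KDM4A: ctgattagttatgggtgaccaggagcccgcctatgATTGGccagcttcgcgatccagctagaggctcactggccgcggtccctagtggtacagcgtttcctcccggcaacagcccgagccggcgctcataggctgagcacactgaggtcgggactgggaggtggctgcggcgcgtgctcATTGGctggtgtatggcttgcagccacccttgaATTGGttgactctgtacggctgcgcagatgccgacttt

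SMYD2 held 4 matches to the SP1 box (GGGCGG) and 46 CpG dinucleotides. EZH2 held 4 SP1 boxes, 4 CCAAT boxes and 1 NRF1 motif. NSD2 held 6 SP1 boxes, 1 CCAAT box and 1 E2F octamer (TTTCCCGC, TTTCGCGC, TTTGCCGC and TTTGGCGC were searched), and KDM4A held 3 CCAAT boxes and no SP1 box. Promoters of 38 of the 42 members were in the RefSeq table. The SP1 box stood in 26 of these (68.4%), against 42.3% of all 27305 promoters of that length, and the NRF1 motif in 8 (21.1%, against 5.53%). CCAAT stood in 10 (26.3%, against 33.0%), the E-box CACGTG in 5 (13.2%, against 6.49%), an E2F octamer in 3 (7.89%, against 2.79%), TGACGTCA in 1 (2.63%, against 1.77%), TGANTCA in 1 (2.63%, against 6.6%) and CCGGAAGT in 0 (against 3.64%). Members had a median of 23 CpG dinucleotides in the window, against 11 in all promoters. Motifs can overlap, SP1 boxes in CpG-rich DNA included, and a match describes letters, not a bound site.

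Levels are in the deposited rescaled TPM, a transcript abundance corrected for length and scaled between libraries. The read depth behind each value is unknown, which leaves no counting interval to print. Within a group, Pearson r between libraries was 0.9881 to 0.9912 over 15456 genes, which are not independent replicates. KDM1A itself averaged 190 ± 8.17 with ORY-1001 and 184 ± 2.43 in controls of H82, and 188 ± 4.68 with ORY-1001 and 185 ± 2.57 in controls of H211 (SD, n = 3 each), with no call in either line (limma adjusted p = 0.354 and 0.663). The lines carried their own markers: NEUROD1 was at 1.4 to 2.098 in H211 controls and 134.9 to 139 in H82 controls, and POU2F3 at 277.4 to 285.2 in H211 controls and 1.782 to 2.718 in H82 controls.

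Markers of other cell types were read in every library. Of 12 blood markers, 7 reached 1 in a library of H82 with ORY-1001, 5 in H82 controls, 8 in H211 with ORY-1001 and 11 in H211 controls, while HBB lay at 0 in all groups but H211 controls. Their summed level was 29.31 to 141.4 with ORY-1001 and 42.29 to 57.64 in controls of H82, and 27.83 to 46.05 with ORY-1001 and 42.06 to 249.1 in controls of H211, so no library was free of them. MPO, a myeloid enzyme, was called higher in H82 (8.707, 8.547 and 24.26 with ORY-1001, against 0.08491, 0.03768 and 0.02838 in controls, adjusted p = 0.0141). Of 6 neuroendocrine markers tested, 5 fell in H82, where the sum over 7 was 354.8 to 360.6 with ORY-1001 and 497.6 to 509.7 in controls. In H211 only NCAM1 of these was called, higher at 73.8, 68.94 and 68.8 with ORY-1001, against 58.55, 56.63 and 54.18 in controls. Of 7 tuft-cell markers, 2 fell (SOX9 and BMX) and 1 rose (GFI1B) in H211, where their sum was 1120 to 1157 with ORY-1001 and 1415 to 1431 in controls, and 1 fell in H82 (POU2F3), at sums of 6.763 to 9.793 with ORY-1001 and 8.145 to 13.25 in controls. Fibroblast and endothelial markers (7 genes) summed to 64.67 to 71.14 with ORY-1001 and 6.017 to 7.093 in controls of H211. Most of that was DCN, a secreted proteoglycan, at 68.05, 62.12 and 61.45 with ORY-1001, against 3.915, 3.955 and 4.422 in controls (log2 fold change 3.67, adjusted p = 6.08e-07). The other fibroblast and endothelial markers stayed at 1.27 or less in every H211 library, and in H82 the sums were 1.964 to 4.389 with ORY-1001 and 1.58 to 2.864 in controls. Of 16 proliferation markers, 5 fell and 2 rose (PCNA and CCNB1) in H82 with a median log2 fold change of −0.06, and 7 fell and 0 rose in H211 with a median of −0.15. Their sums were 2515 to 2623 with ORY-1001 and 2680 to 2744 in controls of H82, and 1769 to 1795 with ORY-1001 and 1899 to 2019 in controls of H211. Of all genes tested, 43.0% were called in H82 (23.9% lower) and 18.6% in H211 (9.61% lower). Of the proliferation markers, 43.8% were called in H82 and 43.8% in H211. For the neuroendocrine markers tested these shares were 83.3% and 16.7%, and for the tuft-cell markers 14.3% and 42.9%. The part of these markers in the results below was not tested. In bulk RNA, fewer cells that express a gene and less RNA per cell cannot be told apart.

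In H82, ORY-1001 changed 23 of the 42 genes, 17 lower and 6 higher than in controls. The genes that fell included the H3K36 methyltransferases NSD2 and NSD3, the demethylases KDM4A, KDM5B and PHF2 and the H3K9 methyltransferase EHMT2, and those that rose included SMYD2, EZH2 and SUV39H2. Calls were made at a Benjamini-Hochberg adjusted p under 0.05 from limma on log2(rescaled TPM + 1), and 43.0% of all genes tested were called in this comparison, 19.1% higher and 23.9% lower. The members' share of 54.8% was not compared by a test. Their median log2 fold change was −0.18, beside −0.02 over all genes tested. The 42 summed to 794.4 to 830.6 with ORY-1001 and 909.4 to 930.9 in H82 controls, so the ranges of the sums did not overlap. Leaving out any of the 12 libraries left 17 to 25 members called, and 19 were called without 4 libraries that an earlier analysis of these data set apart for certain blood transcripts (H82 ORY-1001 replicate 3, H211 ORY-1001 replicate 3 and H211 control replicates 1 and 2). The libraries that remain carry blood markers too.

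**Figure D1:**
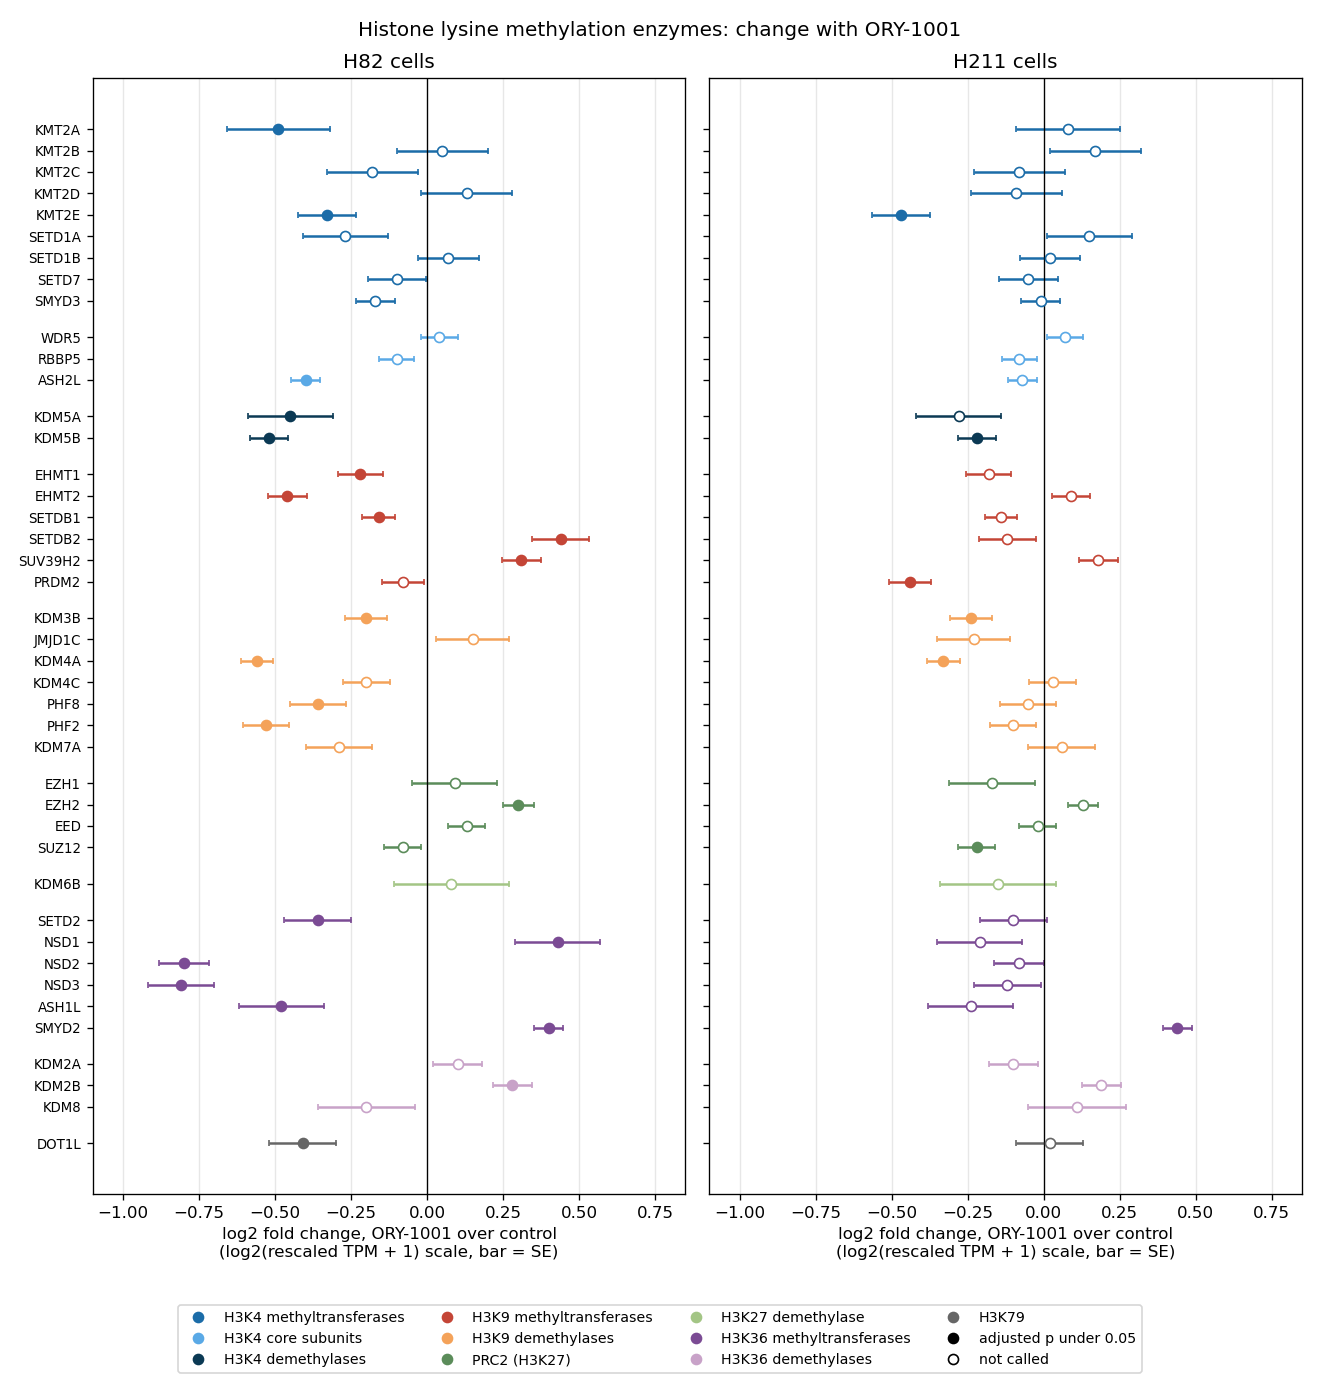
Log2 fold change of each of the 42 genes (ORY-1001 over control, horizontal axis, on log2(rescaled TPM + 1)) in H82 and in H211, grouped by mark, with bars for the standard error from limma and filled points for adjusted p under 0.05. In H82, 17 filled points lie below 0 and 6 above, and in H211 there are 6 below and 1 above.

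None of the 14 H3K4 genes rose in H82, and 5 fell. That is 35.7% called, beside 43.0% of all genes tested (19.1% higher and 23.9% lower). KDM5B, a JARID1 demethylase of trimethylated H3K4, was at 12.55, 13.43 and 14.05 with ORY-1001, against 19.74, 19.76 and 19.32 in controls. Every treated library was lower than every control, and KDM5B fell by 0.52 on the log2 scale (SE 0.063, adjusted p = 6.02e-05). KDM5A, its paralog, was at 7.117, 8.586 and 10.66 with ORY-1001, against 12.8, 14.16 and 10.08 in controls, so that the groups overlapped. It was called lower at −0.45 (adjusted p = 0.0211), and the call was lost without either ORY-1001 replicate 1 or 2 or control replicate 1 or 2, with an adjusted p of up to 0.0854. KDM5A made up 39.4% ± 3.5 of the summed level of both with ORY-1001 and 38.5% ± 3.81 in controls (SD, n = 3 each).

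ASH2L, a core subunit that the COMPASS methyltransferases need for full activity, was at 21.16, 21.52 and 21.32 with ORY-1001, against 29.3, 27.02 and 29.17 in H82 controls. The 3 treated libraries were nearly equal and lay below all controls, with a log2 fold change of −0.40 (SE 0.048, adjusted p = 5.37e-05). The other core subunits, WDR5 and RBBP5, were not called (log2 fold changes 0.04 and −0.10, 95% intervals −0.09 to 0.17 and −0.23 to 0.02). Of the 9 genes listed as methyltransferases, KMT2A and KMT2E were called lower. KMT2E, a SET-domain protein of the family that is not known as an active H3K4 methyltransferase, was at 21.61, 21.93 and 24.88 with ORY-1001 and 30.05, 31.53 and 25.39 in controls (log2 fold change −0.33, adjusted p = 0.0166). KMT2E libraries of the groups did not overlap, yet the call was lost without ORY-1001 replicate 1 or 2 or control replicate 1 or 2 (adjusted p up to 0.0696). KMT2A, a COMPASS methyltransferase often rearranged in leukaemia, was at 5.655, 4.759 and 3.812 with ORY-1001 and 6.51, 6.522 and 7.973 in controls (log2 fold change −0.49, adjusted p = 0.0418). Its call was lost without ORY-1001 replicate 2 or 3, any of the 3 H82 controls, H211 ORY-1001 replicate 1 or H211 control replicate 2, with an adjusted p of 0.0507 to 0.148. The other 7 methyltransferases, KMT2B, KMT2C, KMT2D, SETD1A, SETD1B, SETD7 and SMYD3, had log2 fold changes from −0.27 to 0.13 and were not called.

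Of the 13 H3K9 genes in H82, 7 fell and 2 rose. Called were thus 69.2%, beside 43.0% of all genes tested (23.9% lower and 19.1% higher). KDM4A, a demethylase of trimethylated H3K9 and H3K36, was at 23.17, 23.23 and 21.63 with ORY-1001, against 32.85, 34.77 and 34.02 in controls. All treated libraries lay below all controls, and KDM4A fell by 0.56 (SE 0.054, adjusted p = 1.21e-05). PHF2, a Jumonji protein that works on methylated H3K9, was at 3.847, 3.73 and 4.083 with ORY-1001 and 6.361, 5.775 and 6.052 in controls (log2 fold change −0.53, adjusted p = 1.95e-04). Its treated libraries all lay under its controls. PHF8, the related demethylase of dimethylated H3K9, fell by 0.36 (adjusted p = 0.0084), and KDM3B, which acts on mono- and dimethylated H3K9, by 0.20 (adjusted p = 0.0358). The KDM3B call was lost without ORY-1001 replicate 1 or 2 or control replicate 1 or 3 (adjusted p up to 0.136). JMJD1C, KDM4C and KDM7A were not called, at 0.15, −0.20 and −0.29.

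The H3K9 methyltransferases split in H82. EHMT2 (G9a), which writes mono- and dimethylated H3K9 together with EHMT1 (GLP), was at 40.81, 41.18 and 40.44 with ORY-1001, against 53.95, 57.36 and 58.92 in controls. Treated libraries agreed closely and lay below every control (log2 fold change −0.46, SE 0.064, adjusted p = 1.5e-04). EHMT1 fell by 0.22 (adjusted p = 0.0288) and SETDB1, which writes trimethylated H3K9 at repeats and is recruited by TRIM28, by 0.16 (adjusted p = 0.0303). Both calls were lost when any of several single libraries was left out. Over all alternative settings the log2 fold changes stayed at −0.26 to −0.18 for EHMT1 and −0.18 to −0.14 for SETDB1. EHMT1 was lost without ORY-1001 replicate 1 or 3 or control replicate 1 or 3 (adjusted p up to 0.11), and SETDB1 without ORY-1001 replicate 1 or 2 or control replicate 2 or 3 (adjusted p up to 0.104). EHMT2 and EHMT1 made up 54.8% ± 0.611 and 45.2% ± 0.611 of their sum with ORY-1001, against 58.9% ± 1.36 and 41.1% ± 1.36 in controls (SD, n = 3 each).

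SUV39H2, which writes trimethylated H3K9 in constitutive heterochromatin, went the other way, at 48.92, 45.67 and 47.2 with ORY-1001 and 36.28, 37.61 and 40.29 in H82 controls. All treated libraries lay above all controls (log2 fold change 0.31, SE 0.065, adjusted p = 0.00281). SETDB2, a further H3K9 methyltransferase, was also called higher (0.44, adjusted p = 0.00291), but only between very low levels, 0.4512, 0.4138 and 0.4974 with ORY-1001 and 0.03117, 0.1562 and 0.02901 in controls. PRDM2, an H3K9 methyltransferase with a PR domain, was not called (−0.08, 95% interval −0.24 to 0.07).

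Among the 5 H3K27 genes of H82, EZH2 rose and none fell. The share called was 20%, beside 43.0% of all genes tested (19.1% higher and 23.9% lower). EZH2, the main catalytic subunit of PRC2, was at 80.43, 75.91 and 78.01 with ORY-1001 and 62.79, 64.43 and 62.53 in controls. Every treated library exceeded every control, a 1.24-fold ratio of means and a log2 fold change of 0.30 (SE 0.050, adjusted p = 5.73e-04). The call held without any 1 of the 12 libraries, at an adjusted p of 2.03e-04 to 0.00323. EED and SUZ12, which PRC2 needs to be stable and active, were not called (0.13 and −0.08, adjusted p = 0.0968 and 0.304), nor were EZH1, the less active paralog (0.09), and the demethylase KDM6B (0.08). The summed level of the 4 PRC2 genes was 131 to 137.3 with ORY-1001 and 116.2 to 119.9 in controls.

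A plain ratio within a library does not depend on scaling between libraries. Here 1 was added to each value before the log2 ratio was taken, so some dependence remains. The log2 ratio of EZH1 to EZH2 was −3.25, −3.41 and −2.94 with ORY-1001 and −2.95, −3.12 and −2.88 in H82 controls, and −2.48, −2.4 and −2.71 with ORY-1001 and −2.08, −2.3 and −2.3 in H211 controls. The groups overlapped in H82 and not in H211. The differences were −0.21 and −0.30 (two-sided exact permutation p = 0.3 and 0.1, with 0.1 the smallest that 3 against 3 libraries can give). With 0.1 added in place of 1, the differences were −0.21 and −0.33.

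**Figure D2:**
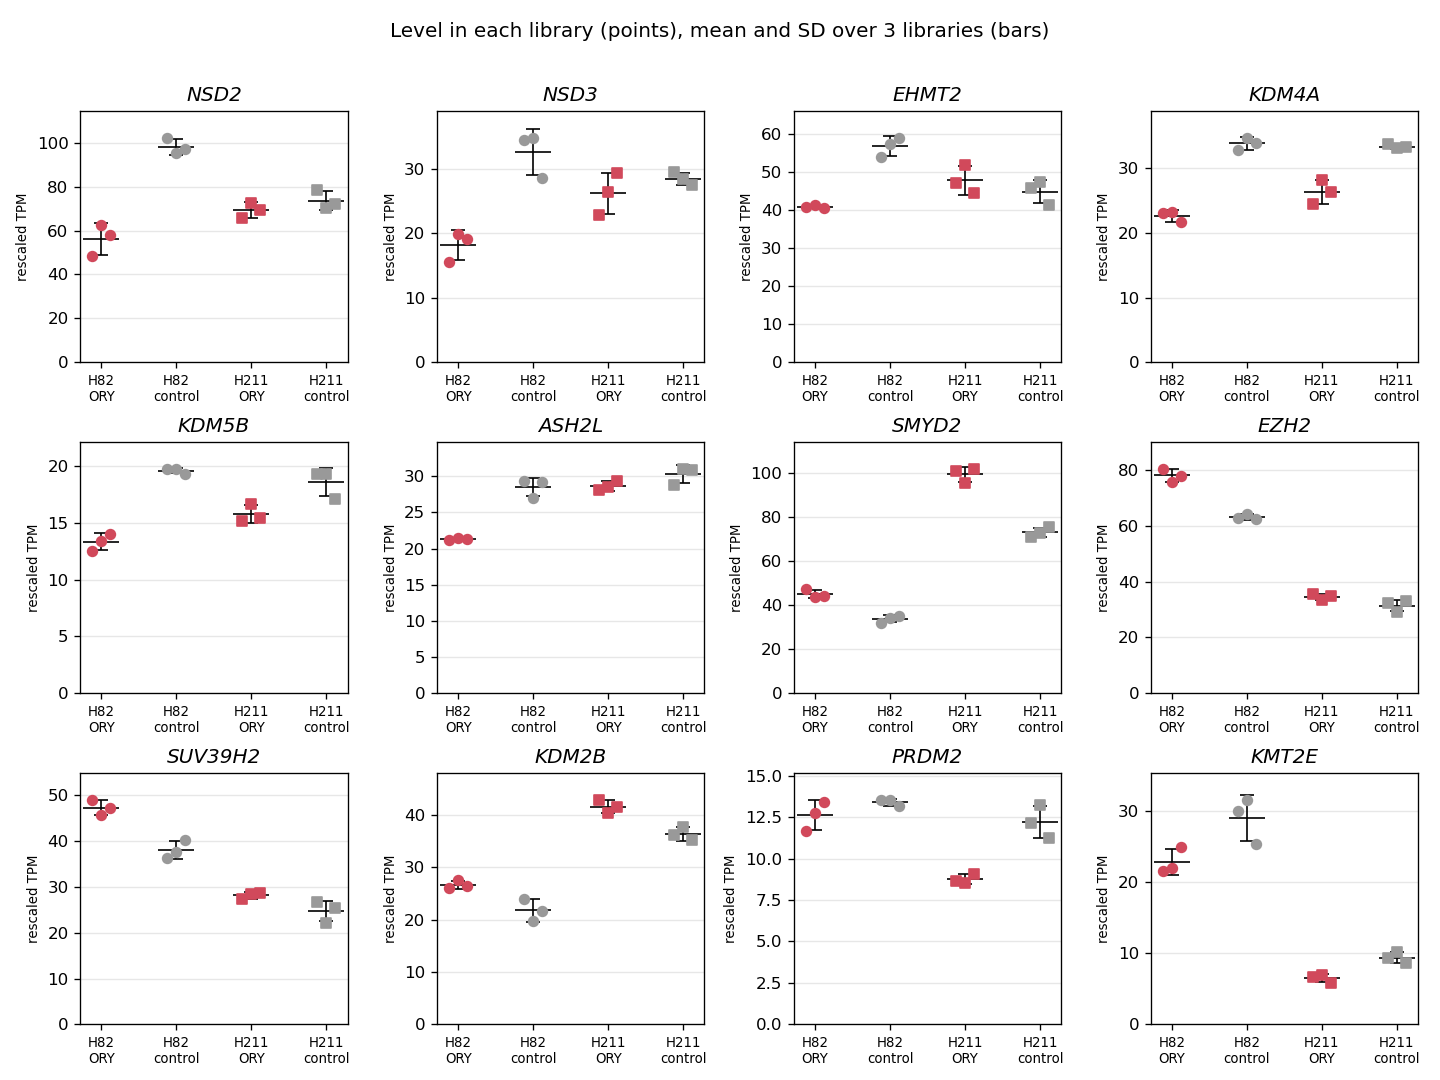
Rescaled TPM (vertical axes from 0) of 12 members in each library, with points for the 3 libraries of a group and bars for the mean and SD, ORY-1001 left of control within H82 and H211. SMYD2 lies higher with ORY-1001 in both lines and KDM4A lower in both, while NSD2 is lower in H82 and overlaps in H211.

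The H3K36 methyltransferases held the largest falls of any members in H82. NSD2, which writes mono- and dimethylated H3K36, was at 48.39, 62.56 and 57.77 with ORY-1001, against 102.4, 95.32 and 97.19 in controls. NSD3, its paralog, was at 15.45, 19.89 and 19.06 with ORY-1001, against 34.39, 34.82 and 28.5 in controls. Neither gene's groups overlapped, and the means stood at 0.572-fold of control for NSD2 (log2 fold change −0.80, SE 0.082, adjusted p = 1.77e-05) and 0.557-fold for NSD3 (−0.81, SE 0.110, adjusted p = 1.37e-04). The sum of NSD1, NSD2 and NSD3 was 75.2 ± 9.51 with ORY-1001 and 131 ± 5.52 in H82 controls (SD, n = 3 each), and NSD2 made up 74.8% ± 0.494 and 74.9% ± 2.11 of it. NSD1 was called higher (0.43, adjusted p = 0.0327) between levels under 1, namely 0.8091, 0.6827 and 0.9529 with ORY-1001 and 0.2078, 0.5674 and 0.2969 in controls. Its call was lost without ORY-1001 replicate 1 or 3 or control replicate 1 or 3 (adjusted p up to 0.111).

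SETD2, the main writer of trimethylated H3K36, fell by 0.36 (adjusted p = 0.0217), and its call was lost without ORY-1001 replicate 1 or 3 or control replicate 1 (adjusted p up to 0.0885). ASH1L, an H3K36 methyltransferase of active genes, fell by 0.48 (adjusted p = 0.0140), a call lost without control replicate 1 (adjusted p = 0.0586). SMYD2, which methylates H3K36 and also non-histone proteins such as p53, rose. It was at 47.24, 43.76 and 44.35 with ORY-1001, against 32.1, 34.4 and 35.26 in H82 controls, with all treated libraries above all controls (log2 fold change 0.40, SE 0.048, adjusted p = 5.77e-05).

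Of the H3K36 demethylases, KDM2B, which binds unmethylated CpG islands, was at 25.98, 27.47 and 26.38 with ORY-1001 and 23.97, 19.65 and 21.72 in H82 controls. Its groups did not overlap (log2 fold change 0.28, SE 0.064, adjusted p = 0.00432), while KDM2A (0.10) and KDM8 (−0.20) were not called. DOT1L, the H3K79 methyltransferase, was at 17.69, 23.68 and 25.57 with ORY-1001 and 30.42, 29.05 and 29.17 in controls. Its treated libraries spread more widely than its controls but lay below all of them (log2 fold change −0.41, adjusted p = 0.0129).

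By mark, the median log2 fold changes in H82 were −0.18 for the 14 H3K4 genes, −0.20 for the 13 H3K9 genes, 0.09 for the 5 H3K27 genes and −0.20 for the 9 H3K36 genes. The shares called were 35.7%, 69.2%, 20% and 77.8% of these, against the 43.0% of all genes tested, and no test compared the marks. By activity, 11 of 29 methyltransferases and subunits fell and 5 rose, and 6 of 13 demethylases fell and 1 rose.

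In H211, ORY-1001 changed 7 of the 42 genes, 6 lower and 1 higher than in controls. SMYD2 was the gene that rose, and KMT2E, PRDM2, KDM4A, KDM3B, KDM5B and SUZ12 fell. Of all genes tested, 18.6% were called in H211, 8.95% higher and 9.61% lower, beside 16.7% of the members. The members' median log2 fold change was −0.08, beside 0.00 over all genes tested, and their sum was 845.2 to 872.4 with ORY-1001 and 841.8 to 889.5 in controls, which overlapped. Leaving out any of the 12 libraries left 4 to 9 members called, with 4 without ORY-1001 replicate 1 and 4 without control replicate 2. Leaving out those 4 libraries, of which H211 ORY-1001 replicate 3 had the lowest summed blood markers of all (27.83), left 0 members called by limma and 3.78% of all genes, with 6 members at an unadjusted p under 0.05, 3 higher and 3 lower. That fit sets 2 treated libraries against a single control, which is assumed to vary like the other groups.

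SMYD2 was at 101.2, 95.78 and 102 with ORY-1001, against 71.08, 72.69 and 75.5 in H211 controls. The groups lay far apart, with a log2 fold change of 0.44 (SE 0.048, adjusted p = 9.51e-05), and the value without the 4 libraries was 0.38 (adjusted p = 0.058). Together with the 0.40 in H82, SMYD2 was the only member called higher in both lines, and the difference between its effects was 0.04 (95% interval −0.11 to 0.19, adjusted p = 0.696).

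KDM4A was at 24.5, 28.22 and 26.42 with ORY-1001, against 33.78, 33.16 and 33.28 in H211 controls. All treated libraries lay below the controls, which were nearly equal (log2 fold change −0.33, SE 0.054, adjusted p = 0.00162, and −0.33 with adjusted p = 0.117 without the 4 libraries). KDM5B was at 15.18, 16.71 and 15.45 with ORY-1001 and 19.33, 19.27 and 17.14 in controls, with no overlap (−0.22, adjusted p = 0.0326). KDM3B was at 25.13, 27.26 and 28.25 with ORY-1001 and 32.11, 33.81 and 29.93 in controls, again with no overlap (−0.24, adjusted p = 0.0332). The KDM5B call was lost without ORY-1001 replicate 1 or 3 or control replicate 1 or 2 (adjusted p up to 0.114). The KDM3B call was lost without ORY-1001 replicate 1 or 2 or control replicate 1 or 2 (adjusted p up to 0.12).

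KMT2E was at 6.67, 6.986 and 5.828 with ORY-1001, against 9.393, 10.16 and 8.6 in H211 controls, with no overlap (log2 fold change −0.47, SE 0.096, adjusted p = 0.00628). PRDM2 was at 8.616, 8.54 and 9.088 with ORY-1001 and 12.15, 13.2 and 11.26 in controls. Its treated libraries clustered tightly under all controls (−0.44, SE 0.070, adjusted p = 0.00144). Without the 4 libraries these values were −0.29 and −0.36 (adjusted p = 0.272 and 0.109). SUZ12, a structural subunit of PRC2, was at 32.09, 33.36 and 35.24 with ORY-1001 and 39.95, 41.65 and 36.67 in H211 controls. Its groups did not overlap (−0.22, adjusted p = 0.0264), and the call was lost without ORY-1001 replicate 1 or 2 or control replicate 1 or 2 (adjusted p up to 0.102).

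By mark, the shares called in H211 were 14.3% of the H3K4, 23.1% of the H3K9, 20% of the H3K27 and 11.1% of the H3K36 genes. These are to be read beside the 18.6% of all genes tested that were called there. EZH2 was at 35.46, 33.36 and 34.69 with ORY-1001 and 32.33, 29.06 and 32.96 in controls. Its groups did not overlap, and at 0.13 (95% interval 0.02 to 0.24, adjusted p = 0.0948) it was not called. SUV39H2 (0.18, adjusted p = 0.073) and KDM2B (0.19, adjusted p = 0.0639) were likewise not called, although 12 members had no overlap in H211, a share to be read beside the 35.4% of all genes without overlap there. In H82, 26 members had no overlap, beside 52.3% of all genes. The H3K4 genes had 2 lower calls of 14, the H3K9 genes 3 lower of 13, the H3K27 genes 1 lower of 5 and the H3K36 genes 1 higher of 9 in H211, with medians of −0.06, −0.12, −0.15 and −0.10. DOT1L was level, at 0.02.

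Set side by side, 1 member was called higher in both lines, 4 lower in both (KMT2E, KDM5B, KDM3B and KDM4A) and 0 in opposite directions. Calls stood in H82 alone for 18 members, 13 lower and 5 higher, in H211 alone for 2 (PRDM2 and SUZ12), and in neither line for 17. Calls in both lines were not counted over all genes, of which 43.0% were called in H82 and 18.6% in H211. These counts of members therefore have no background to be read against. A call in a single line does not show that the lines differ, so the difference itself was tested as the H211 effect minus the H82 effect. It was called for 10 members, 7 with a higher and 3 with a lower value in H211, beside 32.1% of all genes tested, 17.8% higher and 14.3% lower. Without the 4 libraries, which leaves a single H211 control, the differences were 0.77 for NSD2, 0.71 for EHMT2 and 0.46 for KDM5B. Outside the 10, KMT2A then had 0.91 and JMJD1C −0.68, while SETDB2 did not pass the filter on low values.

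Among the called positive differences, those of NSD2, NSD3, EHMT2 and PHF2 were the largest, each with a fall in H82 and no call in H211. In H211, NSD2 was at 65.86, 72.74 and 69.6 with ORY-1001 and 78.69, 70.23 and 72.12 in controls, which overlapped, and the difference was 0.72 (SE 0.120, adjusted p = 8.38e-04). NSD3 in H211 was at 22.85, 26.33 and 29.31 with ORY-1001 and 29.44, 28.34 and 27.49 in controls, also with overlap, and the difference was 0.69 (SE 0.160, adjusted p = 0.0061). EHMT2 was at 47.07, 51.83 and 44.39 with ORY-1001 and 45.68, 47.25 and 41.33 in H211 controls, and the difference was 0.56 (SE 0.090, adjusted p = 8.5e-04). PHF2, ASH2L, KDM5B and KDM4A had differences of 0.43, 0.33, 0.30 and 0.23 (adjusted p = 0.0105, 0.0037, 0.0241 and 0.0419). Of these, KDM4A and KDM5B were called lower in both lines. The KDM4A difference lost its call without any library other than H82 control replicate 1 or H211 ORY-1001 replicate 1 (adjusted p up to 0.0916). That of KDM5B lost its call without H82 ORY-1001 replicate 1, H211 ORY-1001 replicate 2 or H211 control replicate 3 (adjusted p up to 0.0569).

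The negative differences were those of NSD1 (−0.64, adjusted p = 0.0326), SETDB2 (−0.56, adjusted p = 0.00831) and PRDM2 (−0.35, adjusted p = 0.0184). For NSD1 and SETDB2 they rest on levels under 1 in H82, and the NSD1 call was lost without any of 8 of the 12 libraries, H82 ORY-1001 replicates 1 and 3, H82 control replicates 1 and 3, H211 ORY-1001 replicates 2 and 3 and H211 control replicates 1 and 2 (adjusted p up to 0.0769). For EZH2 the difference was −0.17 (adjusted p = 0.092). DOT1L had 0.43 (adjusted p = 0.0627) and KMT2A 0.57 (adjusted p = 0.102), and neither was called.

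**Figure D3:**
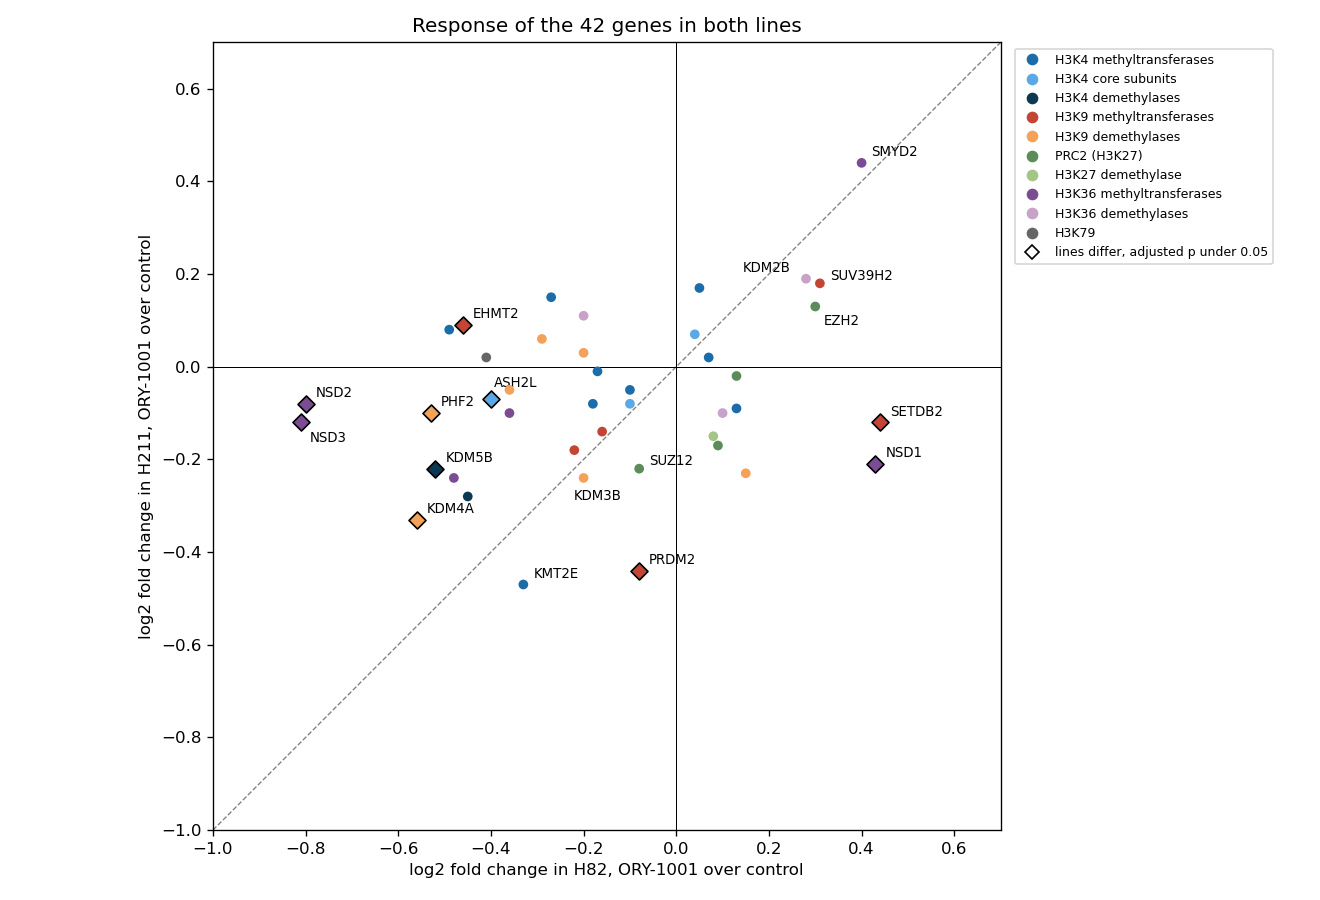
Log2 fold change of the 42 genes (ORY-1001 over control) in H211 (vertical axis) against H82 (horizontal axis), coloured by mark and activity, with diamonds for the 10 genes whose effects differ between the lines at adjusted p under 0.05 and a dashed line of equal effects. NSD2 and NSD3 lie at the far left near 0 on the vertical axis, SMYD2 near the dashed line at the upper right, and PRDM2 and KMT2E lowest.

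The lines were also compared without the inhibitor. Of the 42 genes, 28 were called between H211 and H82 controls, 13 higher and 15 lower in H211, beside 80.5% of all genes tested (39.7% higher and 40.8% lower), and 27 did not overlap, beside 81.7% of all genes. NSD1, which writes mono- and dimethylated H3K36, was at 15.17, 15.15 and 10.9 in H211 controls and 0.2078, 0.5674 and 0.2969 in H82 controls. The groups were widely apart, and H211 stood 3.44 higher on the log2(rescaled TPM + 1) scale, a 38.4-fold ratio of means (adjusted p = 6.21e-10). NSD1 made up 11.8% ± 1.78 of the summed NSD genes in H211 controls and 0.274% ± 0.145 in H82 controls (SD, n = 3 each). SETDB2 likewise stood at 1.1, 1.321 and 1.018 in H211 controls and 0.03117, 0.1562 and 0.02901 in H82 controls (log2 difference 1.00, adjusted p = 1.04e-06).

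The PRC2 genes stood at different levels in the lines. EZH2 was at 32.33, 29.06 and 32.96 in H211 controls and 62.79, 64.43 and 62.53 in H82 controls, lower in H211 by 0.99 on the log2 scale (a log2 difference of −0.99, adjusted p = 3.5e-09), while EED was at 50.14, 48.58 and 49.43 in H211 controls and 25.43, 24.93 and 21.41 in H82 controls (1.02, adjusted p = 1.32e-08). SUZ12 was higher in H211 as well (0.68, adjusted p = 7.2e-07), with 39.4 ± 2.53 in H211 controls and 24.2 ± 0.305 in H82 controls (SD, n = 3 each). The demethylase KDM6B was lower in H211 (−1.28, adjusted p = 5.62e-05), at 5.96, 4.787 and 3.549 against 13.15, 13.53 and 11.64 in H82 controls. For none of these 4 genes did the H211 and H82 controls overlap.

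Other large differences were in SMYD2 (1.09 higher on the log2 scale in H211, adjusted p = 1.1e-09), KDM2A (2.24-fold by ratio of means, adjusted p = 1.07e-07) and KDM2B (0.72 on the log2 scale, adjusted p = 6.46e-07), so that both H3K36 demethylases with a CXXC domain stood higher in H211. KDM2A averaged 29.3 ± 3.10 in H211 controls and 13.1 ± 0.577 in H82 controls. Lower in H211 were KMT2E (−1.53, adjusted p = 2.61e-08), WDR5 (−1.02, adjusted p = 1.39e-08), KDM4C (−0.89, adjusted p = 4.85e-07), DOT1L (−0.88, adjusted p = 1.56e-05), SUV39H2 (−0.60, adjusted p = 3.45e-06) and SETDB1 (−0.57, adjusted p = 8.92e-07). WDR5, the scaffold of the COMPASS core, was at 26.5, 24.84 and 25.23 in H211 controls and 56.29, 50.43 and 51.65 in H82 controls, while ASH2L differed little (0.08, adjusted p = 0.126). KDM4A averaged 33.4 ± 0.325 in H211 controls and 33.9 ± 0.971 in H82 controls (SD, n = 3 each; log2 difference −0.02, and 0.16 with adjusted p = 0.0272 when libraries were set to equal totals without mitochondrial genes, which moved the median of all genes to 0.144).

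**Figure D4:**
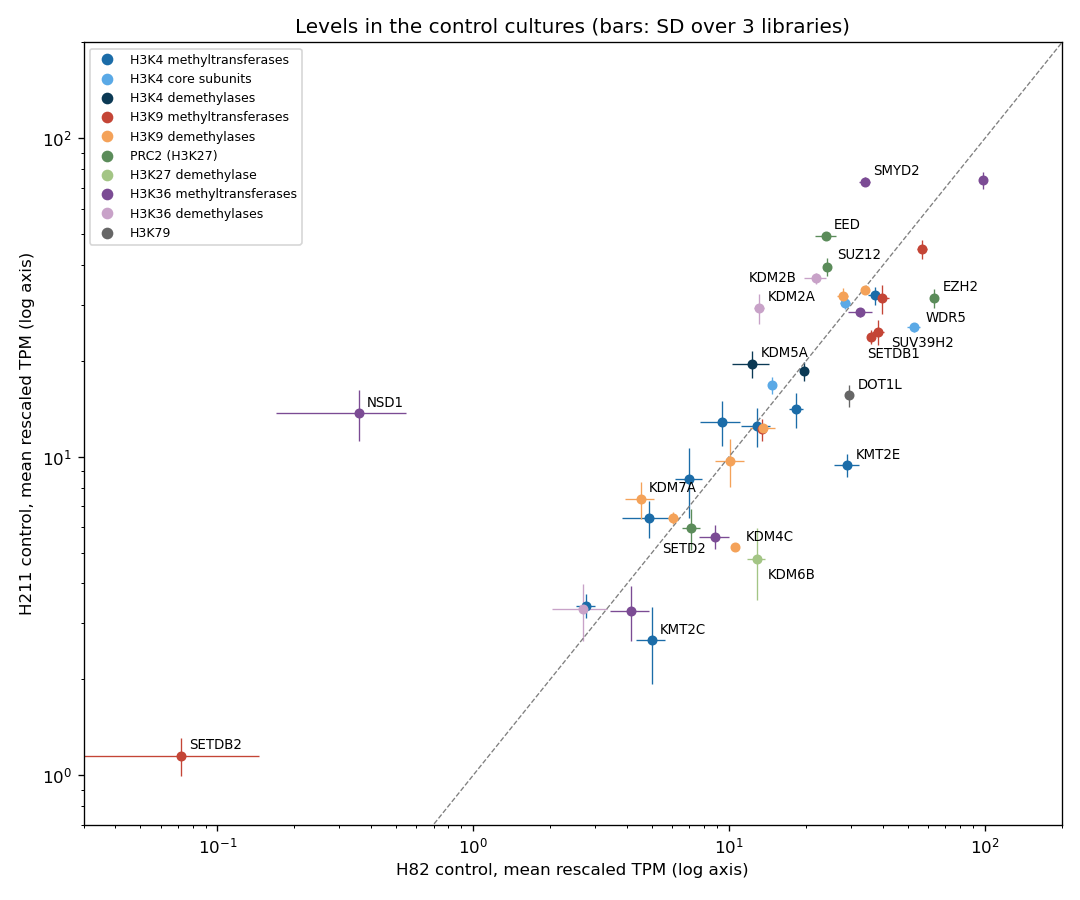
Mean rescaled TPM of the 42 genes in H211 controls (vertical axis) against H82 controls (horizontal axis), both axes logarithmic, coloured by mark and activity, with SD bars over 3 libraries and a dashed line of equal levels. NSD1 and SETDB2 lie far to the left at H82 levels under 1, where the lower SD bar of SETDB2 runs off the log axis, and EZH2, WDR5 and KMT2E lie below the line.

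The members ranged widely in level, and rescaled TPM compares genes per transcript length. With ORY-1001 in H82, EZH2 was highest at 78.1 and SETDB2 lowest at 0.454, and in H82 controls NSD2 was highest at 98.3 and SETDB2 lowest at 0.0721. In H211, SMYD2 was highest with ORY-1001 at 99.7 and NSD2 highest in controls at 73.7, and SETDB2 was lowest with 0.976 with ORY-1001 and 1.15 in controls. The median coefficient of variation over members was 7.3% with ORY-1001 and 7.0% in controls of H82, and 7.06% with ORY-1001 and 8.14% in controls of H211.

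SMYD2 lies on chromosome 1 (214281102 to 214337131, plus strand), EZH2 on chromosome 7 (148807383 to 148884321, minus strand), NSD2 on chromosome 4 (1871424 to 1982207, plus strand) and KDM5B on chromosome 1 (202724495 to 202809470, minus strand), all protein-coding genes of GENCODE 29 on GRCh38. None of these 4 shares exons with another annotated gene. KDM4A on chromosome 1 (43650158 to 43705515, plus strand) overlaps KDM4A-AS1 on the opposite strand and another gene on its own strand, EHMT2 on chromosome 6 (31879759 to 31897687, minus strand) overlaps EHMT2-AS1, and KMT2E on chromosome 7 (105014179 to 105114361, plus strand) overlaps KMT2E-AS1 and SRPK2. ASH2L overlaps STAR, NSD3 overlaps DDHD2, SUV39H2 overlaps DCLRE1C, KDM2B overlaps RNF34, DOT1L overlaps PLEKHJ1 and NSD1 overlaps PRMT1P1, each on the opposite strand. Exons of 23 of the 42 members overlap another gene, 6 of them on the same strand. The use of strand in counting is not stated, so whether reads from the shared stretches were told apart is unknown. The lengths of these stretches were not measured.

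Other genes of histone methylation, from lists of enzymes and complex subunits outside the 42, were measured for comparison. Of 20 genes tested from a list of further methyltransferases and demethylases, 4 rose and 3 fell in H82 (35% called, beside 43.0% of all genes). That list also holds PHF1, a partner of PRC2 rather than an enzyme, which is among the 3. In H211, 1 of the 20 rose (5%, beside 18.6% of all genes), which was SMYD5 (0.28, adjusted p = 0.0116). KDM3A, a paralog of KDM3B with the same substrates, rose in H82, at 24.68, 27.04 and 30.12 with ORY-1001 and 15.79, 12.51 and 14.49 in controls. Its groups did not overlap (log2 fold change 0.89, adjusted p = 3.4e-04), and in H211 it had −0.17 (adjusted p = 0.439), a difference of −1.06 (adjusted p = 0.00185). Of 22 accessory subunits, 3 rose and 10 fell in H82 (59.1%), and 2 rose and 2 fell in H211 (18.2%). RBBP4, a histone chaperone in PRC2, was at 348.6, 348.1 and 343.7 with ORY-1001 and 464.5, 487.6 and 484.6 in H82 controls, with no overlap (−0.46, adjusted p = 1.53e-06).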

How the data were processed

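Messenger RNA of 12 libraries was analysed, in 4 groups of 3 taken from the sample titles, with H82 and H211 each given ORY-1001 or PBS. Per the labels' protocols, oligo(dT)-enriched mRNA was made into libraries with the NEBNext Ultra II kit and sequenced as paired ends. The submitters' processing notes name hg38 and these tools: sleuth 0.30.0 under R 4.0.4, Salmon 1.1.0, DESeq2, Subread 1.5.2 (featureCounts), STAR 2.5.2b and Trimmomatic 0.36. The sources used here do not give the annotation or what each tool did.

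As for units, the deposited signal is TPM from sleuth that the authors rescaled between libraries: column totals run from 967415 to 1111988, where plain TPM has equal totals. Plain TPM had been assumed when the tests were chosen, and no test had to be changed. All 12 values were 0 for 24415 of 56508 symbols, and 27 carried dates in place of symbols, of which 21 were tested and none is named. No 2 columns were identical.

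Values were analysed as log2(rescaled TPM + 1), which understates the fold change of low genes, for genes at 1 or more in at least 3 libraries (15456). All genes were fitted together in limma 3.58.1 (R 4.3.3) with 4 group means and trended eBayes variances, with two-sided p-values, Benjamini-Hochberg adjustment over all genes tested and calls at an adjusted p under 0.05. The fit was tested on simulated data. Contrasts were ORY-1001 against control in each line, the H211 effect minus the H82 effect, and H211 against H82 controls; the drug contrasts share their control libraries with the control contrast. Fold ratios are ratios of group means. Promoter windows are from RefSeq, positions from GENCODE 29 (42 members matched by symbol). Python 3.11.15, pandas 2.3.3, numpy 2.4.6 and matplotlib 3.10.9 were used.

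The 42 members and all gene lists were chosen with earlier results of these data known. Genes named are EZH2 and KDM1A, in each line the largest called changes each way without overlap, the largest called differences between lines and between controls, and the member of each mark group with the smallest p; a group described in full has its other members given too. From other lists, up to 2 called genes per list and contrast by smallest p are named, and single marker genes were named after their values were seen. Of the list of readers of methylated lysine, some results and the counts are not reported here. Tried as alternatives were 25 other settings of pseudocount, filter, scaling, variance prior, library weights, replicate block and libraries left out.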

Additional observations from a re-analysis of the deposited data

Results flagged for a closer look

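For 10 of the 42 genes (23.8%, beside 32.1% of all genes tested), the effect of ORY-1001 differed between the lines at an adjusted p under 0.05 (limma, H211 effect minus H82 effect on the log2 scale). The effects in H211 and H82 were −0.08 and −0.80 for NSD2 (difference 0.72, SE 0.12), −0.12 and −0.81 for NSD3 (0.69, SE 0.16) and 0.09 and −0.46 for EHMT2 (0.56, SE 0.09). They were −0.10 and −0.53 for PHF2 (0.43, SE 0.11), −0.07 and −0.40 for ASH2L (0.33, SE 0.067), −0.22 and −0.52 for KDM5B (0.30, SE 0.09) and −0.33 and −0.56 for KDM4A (0.23, SE 0.077). On the negative side they were −0.21 and 0.43 for NSD1 (−0.64, SE 0.20), −0.12 and 0.44 for SETDB2 (−0.56, SE 0.13) and −0.44 and −0.08 for PRDM2 (−0.35, SE 0.099). The calls for KDM5B, KDM4A and NSD1 were each lost when single libraries were left out.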

How the results depend on the processing

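Called under each of the 25 alternatives that gave a value for the gene were 14 of the 23 members called in H82, 0 of 7 in H211, 3 of 10 for the difference (EHMT2, SETDB2 and NSD2) and 20 of 28 between controls. Leaving out each library in turn gave 17 to 25 calls in H82, 4 to 9 in H211, 7 to 11 for the difference and 25 to 29 between controls. An earlier analysis set apart 4 libraries for certain blood transcripts (H82 ORY-1001 replicate 3, H211 ORY-1001 replicate 3 and H211 control replicates 1 and 2). Without them a single H211 control was left, and results for H211 and for the difference rest on it. This does not give a fit free of blood transcripts: the 8 libraries that stay in have summed blood markers of 29.31 to 57.64. With the replicate block, H211 had 4 members called instead of 7 (2204 of all genes, against 2868). It also had 4 without H211 ORY-1001 replicate 1 and 4 without H211 control replicate 2 (1985 and 1965 of all genes). Apart from these and the fit without the 4 libraries, no count of members moved by over 1.5 times. Whether same-numbered libraries belong together is not stated, and the main fit did not pair them. Their deviations from the group means correlated at −0.0805 to 0.0449, and those of differently numbered libraries at −0.0366 to 0.0655. With 3 libraries per group, these values cannot settle whether the libraries are paired. Equal totals without mitochondrial genes moved the median of all genes between controls to 0.144, against −0.023, and KDM4A between controls to 0.16 (adjusted p = 0.0272), against −0.02. Relative to that median KDM4A is near level. The members' split between controls was then 17 higher and 11 lower, against 13 and 15, that of all genes 7007 and 5440, against 6139 and 6303, that of members for the difference 5 and 4, against 7 and 3, and that of all genes in H211 961 and 2016, against 1383 and 1485. Quantile normalization gave 7 higher and 13 lower members in H82, against 6 and 17. The setting with only the 6 libraries compared gives no value for the difference. Depth is unknown, so no counting error can be set beside low values such as those of SETDB2 and NSD1 in H82.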

Other observations

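Transcripts of proteins that read or organise methylated histones were measured outside the 42 genes. ING4, a reader of trimethylated H3K4, fell by 0.66 in H82 (limma adjusted p = 9.72e-05) and had 0.04 in H211 (adjusted p = 0.822).

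Among subunits, ATF7IP, a partner of SETDB1, fell in both lines, by 0.59 in H82 (adjusted p = 3.47e-04) and by 0.31 in H211 (adjusted p = 0.0362). PSIP1, which links KMT2A complexes to chromatin, rose in H211, at 81.35, 80.09 and 82.18 with ORY-1001 and 69.92, 64.78 and 68.53 in controls (0.26, adjusted p = 0.00117). PHF1, a Polycomb-like partner of PRC2, was at 8.345, 8.91 and 11.88 with ORY-1001 and 17.06, 16.9 and 16.43 in H82 controls, with no overlap (−0.75, adjusted p = 2.53e-04).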
